A study of Bos taurus with 12 samples.

Results

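The genes described here encode the proteins of basement membranes, the collagens and the integrin receptors, followed in 12 pools of cattle embryos at 2 ages, before and after the conceptus begins to elongate. They were chosen by gene symbol: every collagen, laminin, nidogen and integrin chain whose symbol stood alone on an array probe set, together with FN1, SPARC, HSPG2, VTN, SPP1 and DAG1. This gave 56 genes of the 9155 that the arrays name singly, and 105 probe sets of 24016. Where a gene had several probe sets, the one with the highest mean intensity stands for it. One match is by name only: ITGB3BP encodes a nuclear protein that binds the tail of an integrin chain and is no integrin subunit, which leaves 55 genes of the intended kind. Of the core genes looked for, COL4A2, LAMA1, LAMA5 and ITGA6 had no probe set that carried the symbol alone, so the alpha chains of the main embryonic laminins were not analysed here.

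There were 4 groups of 3 pools. Day 13 in vitro and Day 13 in vivo pools each held 5 conceptuses, recovered from synchronized recipient heifers that had each received 10 blastocysts, and frozen singly before pooling. Day 7 in vitro and Day 7 in vivo pools each held 25 blastocysts. In vitro means made by in vitro fertilization (IVF) and in vivo means obtained by superovulation. The words describe only the days up to blastocyst stage, since every Day 13 conceptus had spent the days after Day 7 in a uterus. The labels call the pools biological replicates but give neither the recipients nor the donors behind each. Total RNA (75 ng) was labelled in 2 amplification cycles and read on an Affymetrix bovine array. Because an array reads a whole pool, fewer cells of a type and less RNA per cell cannot be told apart.

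A basement membrane is a thin sheet on which epithelia rest. Laminins, each a trimer of an alpha, a beta and a gamma chain, form one network and type IV collagen another, and nidogens and perlecan (HSPG2) link them. Cells hold the sheet through integrins, which are pairs of an alpha and a beta chain, and through dystroglycan (DAG1). In the early embryo the primitive endoderm, called hypoblast in cattle, is a main source of laminin and type IV collagen, while fibrillar collagens belong mostly to mesenchyme and connective tissue.

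Values are log2 probe set intensities normalized by the authors. A value above 3.39, the 99th percentile of 48 control probe sets for which no target RNA was added, is called above background. Between 41.3% and 42.0% of probe sets exceeded it on each array. The poly-A spike-ins, control RNAs added before labelling, were low on Day 13 in vitro replicates 1 and 2, at 9.27 and 10.50, against 12.99 to 14.96 on the other 10 arrays. The hybridization controls averaged 11.1 ± 0.82 in Day 13 in vitro pools, 13.0 ± 0.29 in Day 13 in vivo pools, 12.2 ± 0.55 in Day 7 in vitro pools and 13.0 ± 0.38 in Day 7 in vivo pools (SD, n = 3 each). The 3' minus 5' difference of GAPDH, which grows as labelling falls short of the 5' end, averaged 3.10 ± 0.92, 4.01 ± 1.01, 3.69 ± 0.43 and 5.61 ± 0.04 in that order of groups (SD, n = 3 each). Calls that rest on the 2 arrays with low spike-ins are given with and without them, and for the partner genes near the end this comparison was chosen after seeing the data.

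Markers of trophoblast, endoderm and epiblast were found in the pools, though not all of them on every array. The mean level of 14 trophoblast markers ran between 10.2 and 11.1 over the Day 13 in vitro arrays, 9.13 and 9.54 over Day 13 in vivo, 6.60 and 7.30 over Day 7 in vitro and 6.79 and 7.31 over Day 7 in vivo. The mean of 14 endoderm markers was 6.42 to 7.14 in Day 13 in vitro pools and 7.73 to 8.24 in Day 13 in vivo pools, against 6.33 to 6.40 in Day 7 in vitro pools and 6.25 to 6.52 in Day 7 in vivo pools. APOB, TTR, AFP and HNF4A of that list were at background on all 12 arrays. Of 7 markers of uterine epithelium, which surrounds a Day 13 conceptus, PGR, OXTR, SERPINA14, ESR1, PAEP and LTF did not exceed background on any array. MUC1, also of that list, exceeded it on Day 13 in vivo replicate 3 alone, at 3.71. Of 10 markers of cumulus and granulosa cells, which surround the oocyte, PTX3, FOXL2, LHCGR, CYP19A1, INHA, FSHR and AMH did not exceed background either. HSD3B1 and STAR exceeded it on all 12 arrays, at 5.37 to 8.65 and 4.25 to 9.62. STAR (both day contrasts) and TNFAIP6 (by day in vivo, and between the origins at Day 13) passed the test used below. The mean of 4 epiblast markers was 5.14 to 5.43 in Day 13 in vitro pools and 6.09 to 6.90 in Day 13 in vivo pools. It was 4.65 to 5.78 in Day 7 in vitro pools and 5.33 to 6.03 in Day 7 in vivo pools. Their courses differed. CRIPTO was at 9.72 to 10.27 in Day 13 in vitro pools and 2.39 to 3.39 in Day 7 in vitro pools. In vivo it was at 11.14 to 11.65 on Day 13 and 6.31 to 6.64 on Day 7. POU5F1 was at 4.51 to 5.30 in Day 13 in vitro pools and 9.89 to 11.22 in Day 7 in vitro pools. SOX2 was at background on every Day 13 array. By the same test 1 of the 4 rose and 1 fell by day in vitro, and 1 rose by day in vivo. At Day 7, 1 was lower in vitro.

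Most of the matrix genes were not seen. Of the 56, 23 (41.1%) exceeded background on at least 3 arrays, 26 on no array and 7 on 1 or 2 arrays, while 5803 of all 9155 genes (63.4%) exceeded it on at least 3. By role, those above background on at least 3 arrays were 5 of 8 laminins and linkers, 2 of 5 basement membrane collagens, 2 of 9 fibrillar collagens, 2 of 9 other collagens, 3 of 4 matrix glycoproteins and 8 of 20 receptors. The laminin chains LAMA4, LAMB2 and LAMB3, the type IV collagen chains COL4A3 and COL4A4, the type III collagen chain COL3A1 and the adhesive plasma protein VTN stayed at background throughout. Among the receptors the same held for 11 of 20, including ITGA2, ITGA3, ITGA4, ITGA7, ITGB4 and ITGB6.

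**Figure D1:**
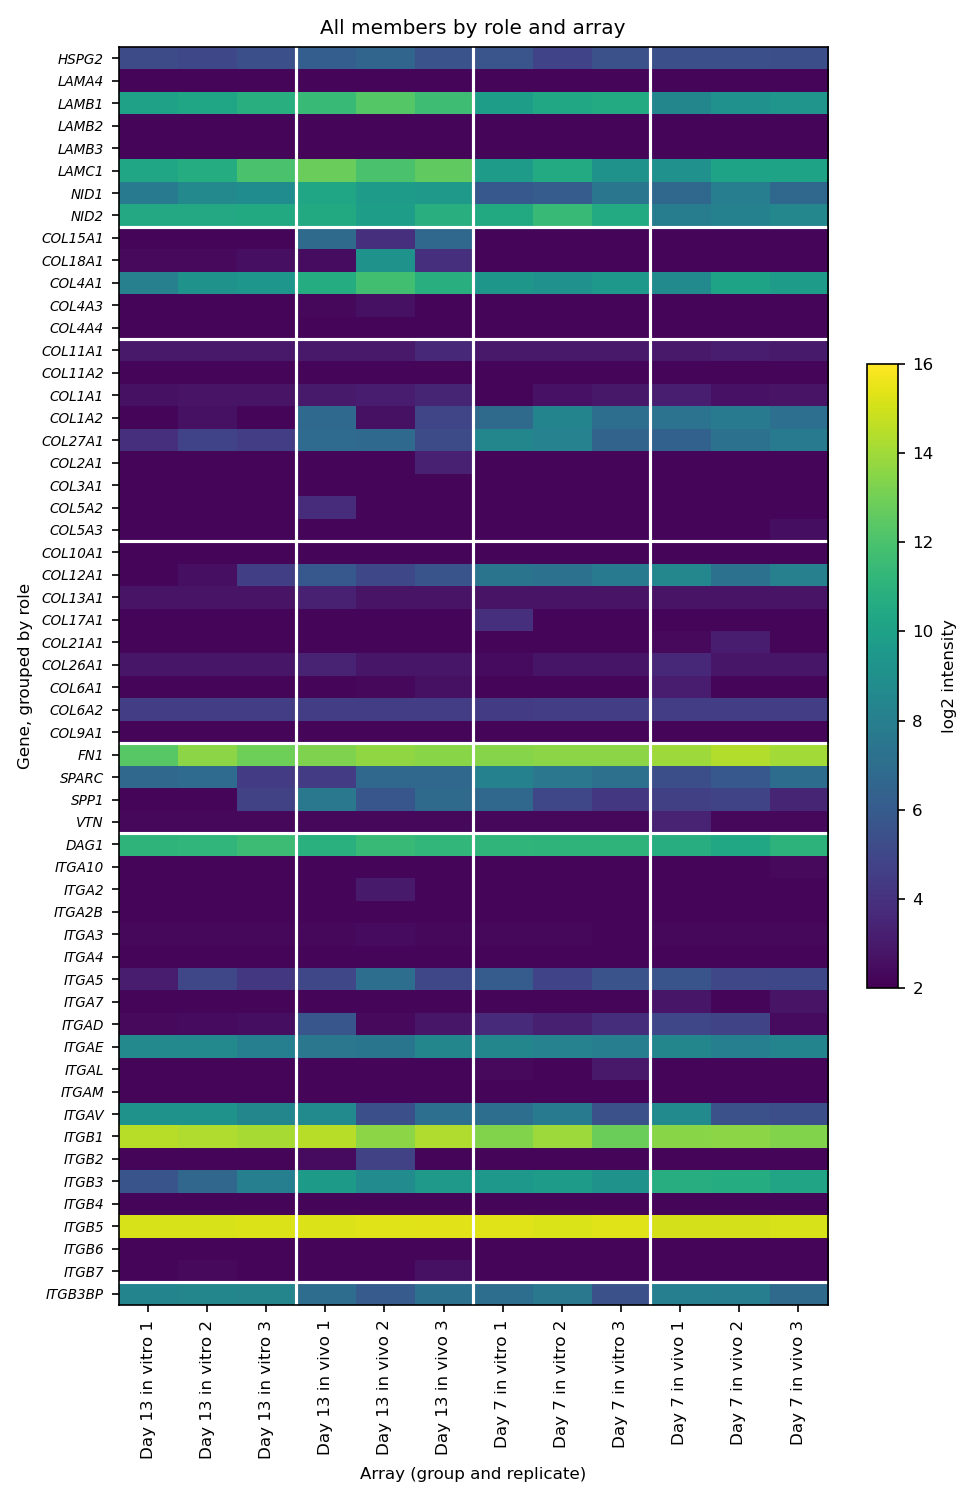
Log2 intensity (colour) of the 56 genes (rows, grouped by role) on each of the 12 arrays (columns, by group and replicate). Most rows are dark across all arrays, and the LAMB1, LAMC1, NID2, COL4A1 and FN1 rows and a few receptor rows are lighter in every group.

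In embryos of in vivo origin 6 genes rose by Day 13, all but 1 of them basement membrane genes (LAMB1, LAMC1, NID1, NID2 and COL15A1, with the integrin chain ITGB5), and 0 fell. The 0 depends on the setting: COL12A1 or COL1A2 also passed in vivo, as lower, under several alternatives given with those genes. In embryos of in vitro origin 0 rose and 4 fell: the collagen genes COL1A2, COL12A1 and COL27A1 and the integrin chain ITGB3. That 0 depends on the setting as well: NID1 or ITGB1 passed in vitro, as higher, under some alternatives given with those genes. Between the origins 1 gene passed at Day 13, COL15A1, which was lower in vitro, and 1 at Day 7, NID2, which was higher in vitro. A gene passed at a Benjamini-Hochberg adjusted p below 0.05 in limma over all probe sets.

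These counts stand against the following shares of all genes. In vitro the 4 genes are 7.14% of 56, and 10.8% of all genes passed, 5.00% higher and 5.77% lower. In vivo the 6 genes are 10.7%, and 5.49% of all genes passed, 2.70% higher and 2.80% lower. The single gene at Day 13 is 1.79% of 56, beside 1.64% of all genes, and the single gene at Day 7 is the same share beside 0.295%. For the difference of the day effect between origins, 0 of 56 passed, beside 0.513% of all genes. At an unadjusted p below 0.05 that contrast had 8 of the 56 and 1296 of all genes. The in vitro count thus lies below the share of all genes, the Day 13 count beside it, and the Day 7 share rests on 1 gene. The in vivo count lies above it, with all 6 genes higher.

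The median difference over the 56 was 0.00 for each day contrast, -0.02 for Day 13 in vitro minus Day 13 in vivo, 0.00 for Day 7 in vitro minus Day 7 in vivo and -0.11 for the difference of the day effect, and the median of all genes was 0.00 in every contrast. Genes at background on all arrays hold the median of the 56 near 0. Over the 23 genes above background on at least 3 arrays it was -0.10 by day in vitro and 0.44 in vivo. It was -1.22 at Day 13, -0.03 at Day 7 and -1.43 for the difference of the day effect. Over all genes above background it was -0.02, 0.02, 0.09, 0.12 and -0.03 in that order. Some of the 23, such as COL15A1, met that filter through 1 group alone, and these medians were not tested. By size the differences at Day 13 leaned one way. Of the 56, 18 (32.1%) were lower in Day 13 in vitro than in Day 13 in vivo by more than 0.5 on the log2 scale and 3 (5.36%) were higher by as much. Of all genes, 1373 (15%) were lower by that much and 2046 (22.3%) higher. The 18 include genes that exceeded background on only 1 or 2 arrays, among them COL1A1, COL5A2, COL18A1 and ITGB2. With Day 13 in vitro replicate 3 as the only array of its group, and so without the low spike-in pair, 18 of the 56 were lower and 2 higher, beside 1144 (12.5%) of all genes lower and 1374 (15%) higher. These are sizes without a test. The contrasts are not independent, since each group serves in several of them. The differences by day in vitro and in vivo have no array in common. Their tests still share an estimate of the spread, taken from all 12 arrays.

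LAMB1, the laminin beta chain, was at 10.03, 10.27 and 10.84 on the Day 13 in vitro arrays, 11.42, 12.31 and 11.67 on Day 13 in vivo, 9.82, 10.38 and 10.58 on Day 7 in vitro and 8.42, 9.10 and 9.32 on Day 7 in vivo. All Day 13 in vivo arrays lay above every other array, all Day 7 in vivo arrays lay below every other array, and the in vitro groups overlapped between the days. In vivo LAMB1 rose by 2.85 ± 0.35 (log2 difference ± SE, adjusted p = 0.00311). In vitro the difference by day was 0.12 ± 0.35 (adjusted p = 1, 95% interval -0.68 to 0.92). The difference between these 2 day effects was -2.73 ± 0.49 and did not pass (adjusted p = 0.0719). Day 13 in vitro differed from Day 13 in vivo by -1.42 ± 0.35 (adjusted p = 0.101), and Day 7 in vitro from Day 7 in vivo by 1.31 ± 0.35 (adjusted p = 0.374). The Day 13 difference passed with median centring (-1.72, adjusted p = 0.0122) and with centring on ribosomal protein genes (-1.30, 0.0417). It also passed with only probe sets above background on 3 arrays (-1.42, 0.0304) and without Day 13 in vitro replicate 3 (-1.65, 0.0356). The rise in vivo passed without any 1 of the 12 arrays, with adjusted p up to 0.0117, and missed when only the 6 arrays compared were fitted (adjusted p = 0.0716).

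NID2, a nidogen that links laminin to type IV collagen, took another course. It was at 10.46, 10.47 and 10.50 in Day 13 in vitro pools, 10.49, 9.79 and 10.77 in Day 13 in vivo pools, 10.53, 11.44 and 10.57 in Day 7 in vitro pools and 7.86, 8.13 and 8.48 in Day 7 in vivo pools. The Day 7 in vivo blastocysts alone were low, with the highest of them below every array of the other groups. NID2 rose by 2.19 ± 0.31 in vivo (adjusted p = 0.00693) and was higher in Day 7 in vitro than in Day 7 in vivo by 2.69 ± 0.31 (adjusted p = 0.0192). In vitro the difference by day was -0.37 ± 0.31 (adjusted p = 0.698) and at Day 13 that between the origins was 0.12 ± 0.31 (adjusted p = 1, 95% interval -0.59 to 0.84). The rise in vivo passed without any 1 array (adjusted p up to 0.0278) and missed with only the 6 arrays compared (adjusted p = 0.1). The Day 7 difference missed without Day 13 in vitro replicate 1 or 2, which enter only the estimate of spread (adjusted p up to 0.055), without both (0.115) and with only the 6 arrays compared (0.247).

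LAMC1, the laminin gamma chain, was at 10.24, 10.67 and 11.96 in Day 13 in vitro pools, 12.810, 11.997 and 12.588 in Day 13 in vivo pools, 9.68, 10.57 and 9.21 in Day 7 in vitro pools and 9.06, 10.12 and 10.13 in Day 7 in vivo pools. The Day 13 in vivo arrays lay above all others, and the in vitro groups overlapped between the days. LAMC1 rose by 2.70 ± 0.54 in vivo (adjusted p = 0.0302), and in vitro the difference was 1.13 ± 0.54 (adjusted p = 0.314). Of its 3 other probe sets above background, 1 also rose in vivo, by 2.45 ± 0.48 (adjusted p = 0.0278), and the others differed by 1.78 ± 0.67 (adjusted p = 0.255) and 0.52 ± 0.23 (adjusted p = 0.357). The same 3 differed in vitro by -0.13 ± 0.48, 0.30 ± 0.67 and 0.13 ± 0.23 (adjusted p = 1 for each).

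NID1, the other nidogen, was at 7.69, 8.58 and 8.80 in Day 13 in vitro pools, 10.25, 9.68 and 9.52 in Day 13 in vivo pools, 5.85, 6.08 and 7.51 in Day 7 in vitro pools and 6.75, 7.98 and 6.65 in Day 7 in vivo pools. Within each origin the Day 13 arrays lay above the Day 7 arrays, and at Day 13 every in vitro array lay below every in vivo array. It rose by 2.69 ± 0.54 in vivo (adjusted p = 0.0314). The difference by day in vitro, 1.88 ± 0.54, did not pass (adjusted p = 0.082), nor did that between the origins at Day 13, -1.46 ± 0.54 (adjusted p = 0.233). By day in vitro NID1 passed as higher with the arrays centred on ribosomal protein genes (1.94, adjusted p = 0.0371). It also passed there with only probe sets above background on 3 arrays (1.88, 0.0208) and without Day 7 in vitro replicate 3 (2.39, 0.042). The 2 day effects of NID1 differed by -0.81 ± 0.77 (adjusted p = 0.733).

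The calls of LAMC1 and NID1 in vivo were less firm than those of LAMB1 and NID2. Each was lost without 7 of the 12 arrays taken singly. For LAMC1 these were replicates 1 and 3 of Day 13 in vivo, replicate 2 of Day 13 in vitro, replicate 1 of Day 7 in vitro and all replicates of Day 7 in vivo (adjusted p up to 0.0981). For NID1 they were all replicates of Day 13 in vivo, replicate 2 of Day 13 in vitro, replicate 2 of Day 7 in vitro and replicates 1 and 3 of Day 7 in vivo (adjusted p up to 0.109). When the 2 arrays with low spike-ins were left out, NID1 missed (adjusted p = 0.0692) and LAMC1 passed (adjusted p = 0.0369).

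HSPG2, perlecan, was at 5.27, 5.02 and 5.42 in Day 13 in vitro pools, 6.18, 6.59 and 5.57 in Day 13 in vivo pools, 5.68, 4.81 and 5.45 in Day 7 in vitro pools and 5.42, 5.42 and 5.35 in Day 7 in vivo pools. The Day 13 in vivo arrays lay above those of Day 13 in vitro and of Day 7 in vivo. The differences were small and did not pass: 0.71 ± 0.28 by day in vivo (adjusted p = 0.292) and -0.88 ± 0.28 between the origins at Day 13 (adjusted p = 0.191).

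**Figure D2:**
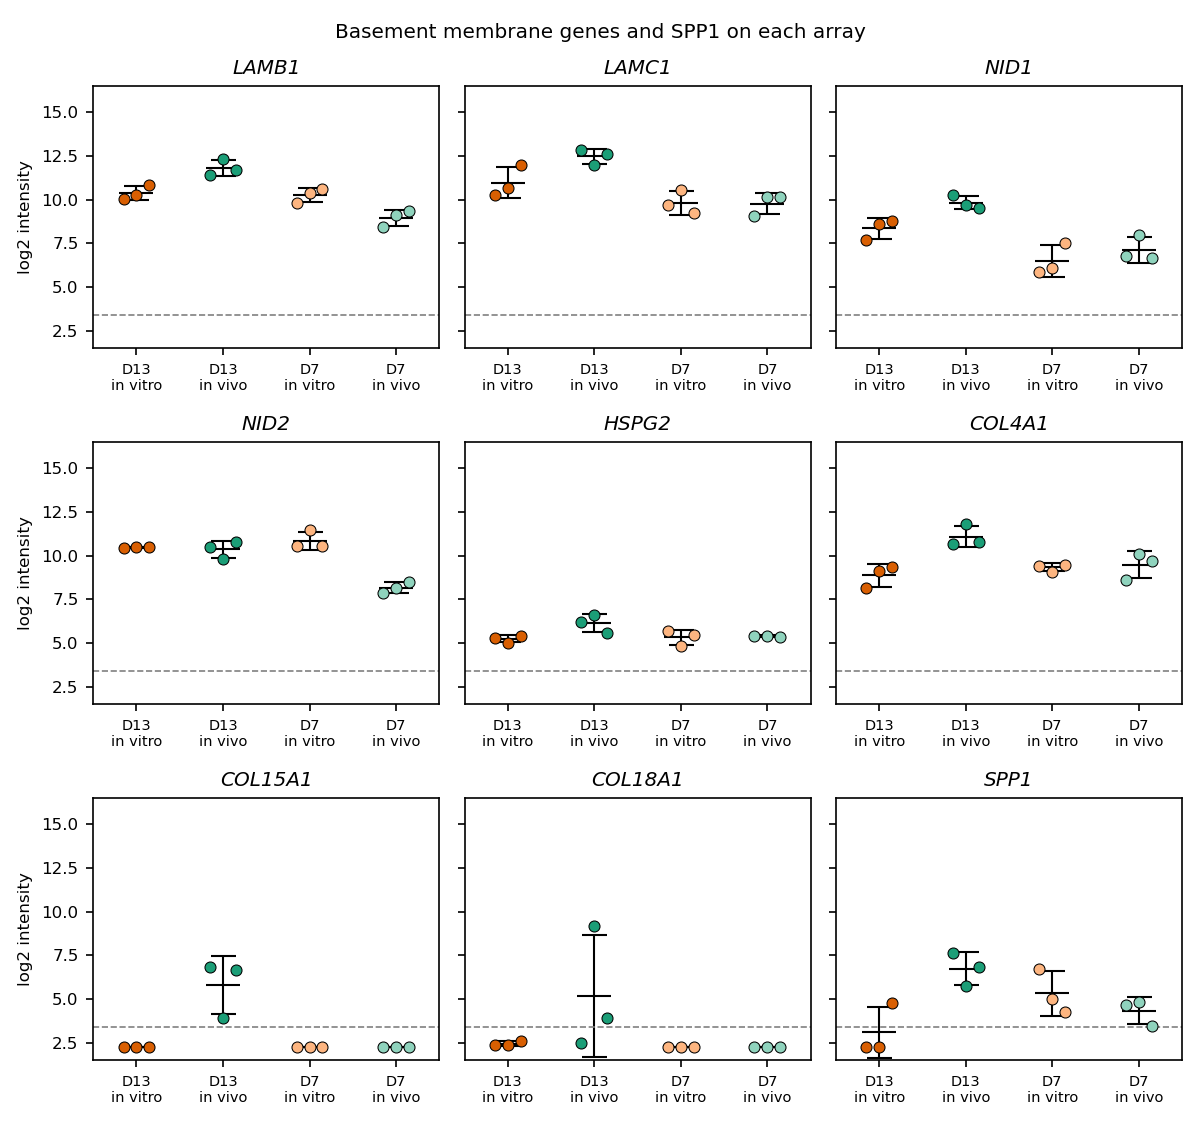
Log2 intensity of 8 basement membrane genes and SPP1 on each array (points), with the mean and SD of each group (bars, n = 3) and the background (dashed line, 3.39). D13 and D7 are Day 13 and Day 7. LAMB1, LAMC1, NID1 and COL4A1 are highest in Day 13 in vivo, NID2 is low only in Day 7 in vivo, and COL15A1 leaves the background only in Day 13 in vivo pools.

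COL4A1, a chain of type IV collagen, was at 8.12, 9.13 and 9.35 in Day 13 in vitro pools, 10.69, 11.78 and 10.79 in Day 13 in vivo pools, 9.43, 9.06 and 9.47 in Day 7 in vitro pools and 8.62, 10.10 and 9.71 in Day 7 in vivo pools. As with LAMB1 and LAMC1, each Day 13 in vivo array lay above all others, and no contrast passed in the fit reported here. Day 13 in vitro differed from Day 13 in vivo by -2.22 ± 0.48 (adjusted p = 0.0698), and by day the differences were -0.45 ± 0.48 in vitro (adjusted p = 0.859) and 1.61 ± 0.48 in vivo (adjusted p = 0.139). A second probe set of COL4A1 gave -2.48 ± 0.52 between the origins at Day 13 (adjusted p = 0.0655). It gave -1.49 ± 0.52 by day in vitro (adjusted p = 0.146) and 1.21 ± 0.52 by day in vivo (adjusted p = 0.339). The call at Day 13 depended on the setting. COL4A1 passed there as lower in vitro with median centring (-2.53, adjusted p = 0.0122), ribosomal centring (-2.11, 0.0214), only probe sets above background on 3 arrays (-2.22, 0.0162) and the mean of its probe sets (-2.35, 0.0318), and without Day 13 in vitro replicate 3 (-2.46, 0.0317). By day in vivo it passed as higher with that filter alone (1.61, adjusted p = 0.041).

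COL15A1, a collagen of the outer face of basement membranes, was above background in Day 13 in vivo alone, at 6.85, 3.91 and 6.67, and stood at 2.23 on every Day 13 in vitro, Day 7 in vitro and Day 7 in vivo array. Against the background it was at least 5.35-fold higher in Day 13 in vivo than in Day 7 in vivo (adjusted p = 0.021) and at least 5.35-fold lower in Day 13 in vitro than in Day 13 in vivo (adjusted p = 0.0469). Both calls rest on the spread among the 3 Day 13 in vivo arrays. With the mean of all COL15A1 probe sets the log2 differences were 1.93 by day in vivo (adjusted p = 0.0167) and -1.93 at Day 13 (0.0371). These are smaller than the 3.58 and -3.58 of the probe set used here, so the other COL15A1 probe sets showed less change. With values below the background set to it, both COL15A1 calls were lost (adjusted p = 0.118 by day and 0.15 at Day 13). The call by day was lost without Day 13 in vivo replicate 1 or 3 or any 1 Day 7 in vivo array (adjusted p up to 0.0665), and without the low spike-in pair (0.0714). The call at Day 13 held only without Day 13 in vitro replicate 3 or Day 13 in vivo replicate 2 and was lost without each of the other 10 arrays (adjusted p up to 0.157), and without the low spike-in arrays (0.372).

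COL18A1, the collagen from which endostatin is cut, was also seen only in Day 13 in vivo pools, at 2.49, 9.14 and 3.89, so that 1 of those arrays stayed at background. It was at 2.35, 2.38 and 2.59 on the Day 13 in vitro arrays and at 2.23 on all Day 7 arrays. With that spread the difference by day in vivo, 2.94 ± 1.40, did not pass (adjusted p = 0.425).

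Markers of both endoderm and trophoblast passed in these contrasts. By day in vivo, 5 of the 14 measured endoderm markers rose, APOA1, APOA2, APOE, RSPO3 and FST, and DAB2 fell. By day in vitro FST rose while GATA6 and CTSV fell, and at Day 13 APOA2 was lower in vitro. Of the 14 trophoblast markers, 6 rose in vivo and 9 rose in vitro, 0 fell in either and 0 passed at Day 13. The mean endoderm marker level given above was highest in Day 13 in vivo, as were LAMB1, LAMC1, NID1 and COL4A1. The endoderm markers did not all share this course. Besides DAB2, GATA6 and CTSV were lower on every Day 13 in vivo array than on every Day 7 in vivo array, without passing. PDGFRA, also of the endoderm list, overlapped between these groups. The high mean thus reflects the 5 markers that rose and not the list as a whole. The part of the number or identity of endoderm or trophoblast cells in the matrix genes was not tested.

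Among the fibrillar collagens, the 2 genes above background on at least 3 arrays both fell in vitro. COL1A2, the second chain of type I collagen, was at 2.23, 2.63 and 2.23 in Day 13 in vitro pools, 6.78, 2.63 and 4.92 in Day 13 in vivo pools, 6.83, 8.30 and 7.08 in Day 7 in vitro pools and 7.34, 7.85 and 7.10 in Day 7 in vivo pools. On Day 13 the in vitro arrays were all at background, the Day 7 arrays were all well above it, and the Day 13 in vivo arrays spread between. COL1A2 was at least 16.1-fold lower in Day 13 in vitro than in Day 7 in vitro (adjusted p = 0.0129). In vivo the difference by day was -2.65 ± 0.90 (adjusted p = 0.205). It passed as lower with the mean of the COL1A2 probe sets (-3.05, adjusted p = 0.0306) and without Day 13 in vivo replicate 1 (-3.65, 0.0359).

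A second probe set of COL1A2 gave the in vivo contrast differently. It was at 2.67, 2.27 and 2.68 in Day 13 in vitro pools and 4.81, 2.86 and 2.85 in Day 13 in vivo pools, against 7.35, 8.03 and 6.77 in Day 7 in vitro pools and 6.52, 6.59 and 7.75 in Day 7 in vivo pools. By it COL1A2 fell by 4.84 ± 0.59 in vitro (adjusted p = 0.00219) and fell by 3.45 ± 0.59 in vivo (adjusted p = 0.016). The difference between the day effects did not pass by either probe set: -2.38 ± 1.28 (adjusted p = 0.588) and -1.40 ± 0.84 (adjusted p = 0.649). COL1A1, which encodes the partner chain, exceeded background on 1 array only, at 3.46 on Day 13 in vivo replicate 3.

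COL27A1, another fibrillar collagen, was at 3.94, 4.81 and 4.54 in Day 13 in vitro pools, 6.90, 6.78 and 5.23 in Day 13 in vivo pools, 8.44, 8.22 and 6.46 in Day 7 in vitro pools and 6.33, 7.22 and 7.79 in Day 7 in vivo pools. Each Day 13 in vitro array lay below all others, and the other groups overlapped. COL27A1 fell by 3.28 ± 0.67 in vitro (adjusted p = 0.0213), and in vivo the difference was -0.81 ± 0.67 (adjusted p = 0.626). At Day 13 the in vitro arrays differed from the in vivo arrays by -1.87 ± 0.67 (adjusted p = 0.219). With the mean of all COL27A1 probe sets the difference by day in vitro was smaller, at -1.64 (adjusted p = 0.0135). Its other probe sets thus showed less change.

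COL12A1, a collagen that decorates the surface of fibrils, was at 2.23, 2.59 and 4.57 in Day 13 in vitro pools, 5.85, 5.03 and 5.62 in Day 13 in vivo pools, 7.40, 7.22 and 7.69 in Day 7 in vitro pools and 8.46, 7.29 and 8.10 in Day 7 in vivo pools. The order of the groups by day was clean: each Day 13 in vitro array lay below the Day 13 in vivo arrays, and these below all Day 7 arrays. COL12A1 exceeded background on 1 of the 3 Day 13 in vitro arrays. It fell by 4.31 ± 0.59 in vitro (adjusted p = 0.00396), and the difference in vivo, -2.45 ± 0.59, missed the threshold (adjusted p = 0.0661). The difference of COL12A1 by day in vivo passed with ribosomal centring (-2.87, adjusted p = 0.0125), the filter on background (-2.45, 0.0139), the floor at background (0.0168) and the spike-in covariate (-2.34, 0.00638). It also passed without the low spike-in pair (0.0206) and without Day 13 in vitro replicate 3 (0.00868). At Day 13 COL12A1 passed as lower in vitro with median centring (-2.67, adjusted p = 0.0122), the filter (-2.37, 0.0245) and without Day 13 in vitro replicate 3 (-3.09, 0.00267), and the last also gave a call for the difference of the day effect (-2.58, 0.0342). Its other probe set gave -2.51 ± 0.93 in vitro (adjusted p = 0.17) and -1.96 ± 0.93 in vivo (adjusted p = 0.416).

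The collagen calls in vitro were recomputed without the 2 arrays with low spike-ins. Without both of them COL12A1 differed by -2.87 (adjusted p = 0.0321), COL1A2 by -5.17 (adjusted p = 0.171) and COL27A1 by -3.17 (adjusted p = 0.263), and only COL12A1 still passed. With the spike-in level as a covariate 0 of the 3 passed, at -2.34 for COL12A1 (adjusted p = 0.075), -5.56 for COL1A2 (0.208) and -2.93 for COL27A1 (0.497). The COL12A1 difference was thus smaller with the covariate, and that of COL1A2 was not. Taken singly, COL12A1 passed without any 1 array (adjusted p up to 0.02), COL1A2 was lost without Day 13 in vitro replicate 1 (0.0516) and COL27A1 without replicate 1 or replicate 2 of either in vitro group (up to 0.0867).

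Of the remaining collagens, COL6A2 exceeded background on all 12 arrays but spanned only 0.09 over them, with every difference between groups within 0.04. It stood at exactly 4.5693 on every Day 13 and every Day 7 in vivo array. It is not the lowest value of that probe set, since Day 7 in vitro replicates 1 and 3 were at 4.48 and 4.54. Why it recurred was not tested. A value repeated in this way may not follow the RNA. The place of COL6A2 among the 23 genes above background thus need not mean expression. Exact values also recurred on some arrays for ITGA5 (4.9636) and HSPG2 (5.4197). COL11A1, COL5A2, COL17A1 and COL26A1 exceeded background on 1 array each. COL2A1, COL5A3, COL6A1, COL9A1, COL10A1, COL11A2, COL13A1 and COL21A1 did not exceed it on any array.

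Markers of connective tissue and blood were sought beside the collagens. The stromal markers DCN, LUM, POSTN, TCF21, HOXA10 and IGFBP1 were at background on all 12 arrays. THY1 and PDGFRB of that list exceeded it on all 12. THY1 ran from 4.92 on Day 13 in vivo replicate 3 to 9.99 on Day 7 in vitro replicate 2. PDGFRB stood at 4.76 on every Day 13 and Day 7 in vitro array and reached 6.18 on Day 7 in vivo replicate 1. The mean of the 8 stromal markers ran between 3.06 and 3.25 in Day 13 in vitro pools and 2.89 and 3.16 in Day 13 in vivo pools, against 3.22 and 3.70 in Day 7 in vitro pools and 3.37 and 3.56 in Day 7 in vivo pools. The mean of 9 blood and endothelial markers was 2.50 to 2.56, 2.49 to 2.62, 3.06 to 3.38 and 3.36 to 3.43 in the same order of groups, with PTPRC, VWF, CDH5, CD68, HBA and CD14 at background throughout. PECAM1 exceeded background on all 12 arrays, at 3.92 to 6.97, and ALAS2 reached 5.19 on Day 7 in vivo replicate 1. HBB was at least 14.7-fold lower by day in vitro (adjusted p = 0.0157), fell by 4.43 on the log2 scale in vivo (adjusted p = 0.0224) and was the only marker of these 2 lists to pass in any contrast. The part of such cells in the collagen values was not tested.

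**Figure D3:**
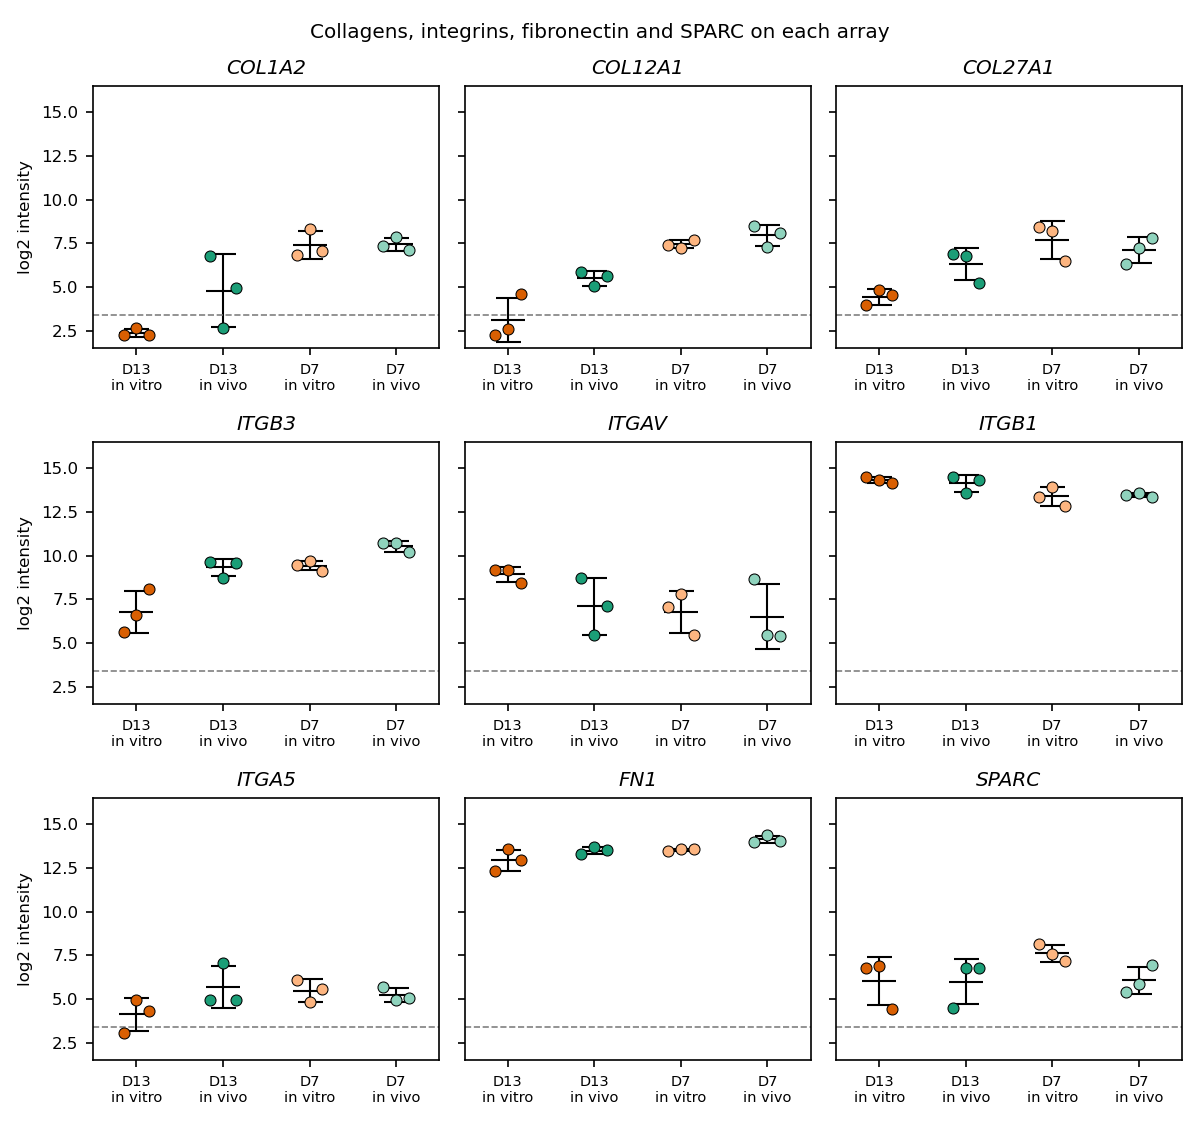
Log2 intensity of 3 collagen genes, 4 integrin genes, FN1 and SPARC on each array (points), with the mean and SD of each group (bars, n = 3) and the background (dashed line, 3.39). D13 and D7 are Day 13 and Day 7. COL1A2, COL12A1, COL27A1 and ITGB3 are lowest in Day 13 in vitro, and ITGB1 and FN1 are high in every group.

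The matrix glycoproteins gave no call in any contrast of the fit reported here. FN1, fibronectin, the ligand of several integrins, was at 12.34, 13.56 and 12.93 in Day 13 in vitro pools, 13.30, 13.67 and 13.50 in Day 13 in vivo pools, 13.47, 13.57 and 13.56 in Day 7 in vitro pools and 13.97, 14.37 and 14.04 in Day 7 in vivo pools. The in vitro groups overlapped and the Day 7 in vivo arrays lay above all others, by little. Its differences by day were -0.59 ± 0.27 in vitro (adjusted p = 0.285) and -0.64 ± 0.27 in vivo (adjusted p = 0.326), and the 2 day effects differed by 0.05 ± 0.38 (95% interval -0.82 to 0.92).

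SPP1, osteopontin, a secreted integrin ligand best known in ruminants as a product of the uterine glands, was at 2.23, 2.25 and 4.79 in Day 13 in vitro pools, 7.62, 5.75 and 6.82 in Day 13 in vivo pools, 6.72, 4.98 and 4.24 in Day 7 in vitro pools and 4.66, 4.84 and 3.43 in Day 7 in vivo pools. At Day 13 each in vitro array lay below each in vivo array, and 2 of the in vitro arrays were at background. The difference at Day 13 was -3.64 ± 0.91 (adjusted p = 0.107), and the day effects of -2.23 ± 0.91 in vitro and 2.42 ± 0.91 in vivo differed by -4.65 ± 1.29 (adjusted p = 0.232). None of these passed in the fit reported here, and the errors are wide. At Day 13 SPP1 passed as lower in vitro with median centring (-3.95, adjusted p = 0.0122). It also passed there with only probe sets above background on 3 arrays (-3.64, 0.0233) and without Day 13 in vitro replicate 3 (-4.49, 0.0173). Without that array the difference of its day effects passed too (-5.49, 0.0391).

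SPARC, a secreted protein that binds collagen, was at 6.74, 6.88 and 4.42 in Day 13 in vitro pools, 4.48, 6.74 and 6.75 in Day 13 in vivo pools, 8.14, 7.54 and 7.17 in Day 7 in vitro pools and 5.37, 5.85 and 6.93 in Day 7 in vivo pools. The Day 7 in vitro arrays lay above all others, and the remaining groups overlapped. The difference by day in vitro was -1.60 ± 0.85 (adjusted p = 0.388) and that between origins at Day 7 was 1.56 ± 0.85 (adjusted p = 0.836).

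Of the integrin beta chains, ITGB3, the partner of ITGAV and ITGA2B, was at 5.64, 6.62 and 8.06 in Day 13 in vitro pools, 9.64, 8.74 and 9.58 in Day 13 in vivo pools, 9.45, 9.67 and 9.14 in Day 7 in vitro pools and 10.74, 10.69 and 10.18 in Day 7 in vivo pools. The Day 13 in vitro arrays lay below all others and the Day 7 in vivo arrays above all others. ITGB3 fell by 2.64 ± 0.55 in vitro (adjusted p = 0.0233), with -1.22 ± 0.55 by day in vivo (adjusted p = 0.38) and -2.54 ± 0.55 between the origins at Day 13 (adjusted p = 0.0712). Without the 2 low spike-in arrays the difference by day in vitro was -1.36 (adjusted p = 0.222), and with the spike-in level as a covariate -1.08 (adjusted p = 0.959). The call by day in vitro was also lost without Day 13 in vitro replicate 1 or 2 alone or any 1 Day 7 in vitro array (adjusted p up to 0.0867). At Day 13 ITGB3 passed as lower in vitro with median centring (-2.85, adjusted p = 0.0122) and with the filter on background (-2.54, 0.0156). It also passed there without Day 13 in vitro replicate 3 (-3.18, 0.00263). The mean of all ITGB3 probe sets passed there too (0.0459), but at a smaller difference, -0.64. By day in vitro that mean gave -0.66. The other ITGB3 probe sets thus showed less change and add no support to these calls.

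ITGB5, another partner of ITGAV, was at 15.15, 15.13 and 15.27 in Day 13 in vitro pools, 15.28, 15.33 and 15.37 in Day 13 in vivo pools, 15.29, 15.19 and 15.34 in Day 7 in vitro pools and 15.11, 15.10 and 15.13 in Day 7 in vivo pools. All 12 arrays lay within 0.28 of each other. The call by day in vivo was a difference of 0.22 ± 0.05 (adjusted p = 0.0436), smaller than the shift of -0.41 that centring the arrays on ribosomal protein genes gives the median of all genes, and under that centring it was -0.20 (adjusted p = 0.454). It was also lost without any 1 of the 6 arrays compared, Day 13 in vivo replicates 1, 2 and 3 and Day 7 in vivo replicates 1, 2 and 3, and without replicate 1 of either in vitro group or Day 13 in vitro replicate 2 (adjusted p up to 0.128). The second ITGB5 probe set gave 0.35 ± 0.44 (adjusted p = 0.871).

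ITGB1, the beta chain shared by the laminin, collagen and fibronectin receptors, was at 14.50, 14.30 and 14.18 in Day 13 in vitro pools, 14.52, 13.59 and 14.33 in Day 13 in vivo pools, 13.36, 13.92 and 12.86 in Day 7 in vitro pools and 13.49, 13.56 and 13.37 in Day 7 in vivo pools. Within each origin every Day 13 array lay above every Day 7 array. The differences, 0.95 ± 0.30 in vitro (adjusted p = 0.11) and 0.67 ± 0.30 in vivo (adjusted p = 0.368), did not pass, and those between origins were 0.18 ± 0.30 at Day 13 and -0.09 ± 0.30 at Day 7 (adjusted p = 1 for each). By day in vitro ITGB1 passed as higher with only probe sets above background on 3 arrays (0.95, adjusted p = 0.0464). It also passed there without Day 7 in vitro replicate 2 (1.22, 0.0448).

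Among the alpha chains, ITGAV, part of the receptors for vitronectin, fibronectin and osteopontin, was at 9.16, 9.19 and 8.41 in Day 13 in vitro pools, 8.72, 5.43 and 7.11 in Day 13 in vivo pools, 7.08, 7.82 and 5.46 in Day 7 in vitro pools and 8.64, 5.46 and 5.37 in Day 7 in vivo pools. The Day 13 in vitro arrays lay above all Day 7 in vitro arrays, the replicates of the other 3 groups spread widely, and the difference by day in vitro, 2.13 ± 1.12, did not pass (adjusted p = 0.38). ITGA5, the alpha chain of the fibronectin receptor, was at 3.08, 4.96 and 4.29 in Day 13 in vitro pools, 4.96, 7.05 and 4.96 in Day 13 in vivo pools, 6.08, 4.79 and 5.56 in Day 7 in vitro pools and 5.66, 4.96 and 5.03 in Day 7 in vivo pools. Neighbouring groups overlapped, with -1.37 ± 0.68 by day in vitro (adjusted p = 0.348) and 0.44 ± 0.68 in vivo (adjusted p = 0.964).

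ITGAD, an alpha chain of leukocyte integrins, exceeded background on 1 Day 13 in vivo array (5.76), on 2 Day 7 in vitro arrays (3.64 and 3.84) and on 2 Day 7 in vivo arrays (4.96 and 4.85), and on 0 of the Day 13 in vitro arrays. ITGAE, the alpha chain that binds E-cadherin in lymphocytes, averaged 8.42 ± 0.30 in Day 13 in vitro pools, 7.80 ± 0.55 in Day 13 in vivo pools, 8.20 ± 0.22 in Day 7 in vitro pools and 8.25 ± 0.18 in Day 7 in vivo pools (SD, n = 3 each), with no contrast past the test. DAG1, dystroglycan, averaged 11.31 ± 0.23 in Day 13 in vitro pools, 11.22 ± 0.31 in Day 13 in vivo pools, 11.13 ± 0.03 in Day 7 in vitro pools and 10.70 ± 0.37 in Day 7 in vivo pools (SD, n = 3 each). Its differences by day were 0.18 ± 0.21 in vitro and 0.53 ± 0.21 in vivo (adjusted p = 0.923 and 0.298), and a second probe set gave -0.06 ± 0.29 in both. The receptors thus held 1 call in each day contrast and 0 between the origins in the fit reported here.

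**Figure D4:**
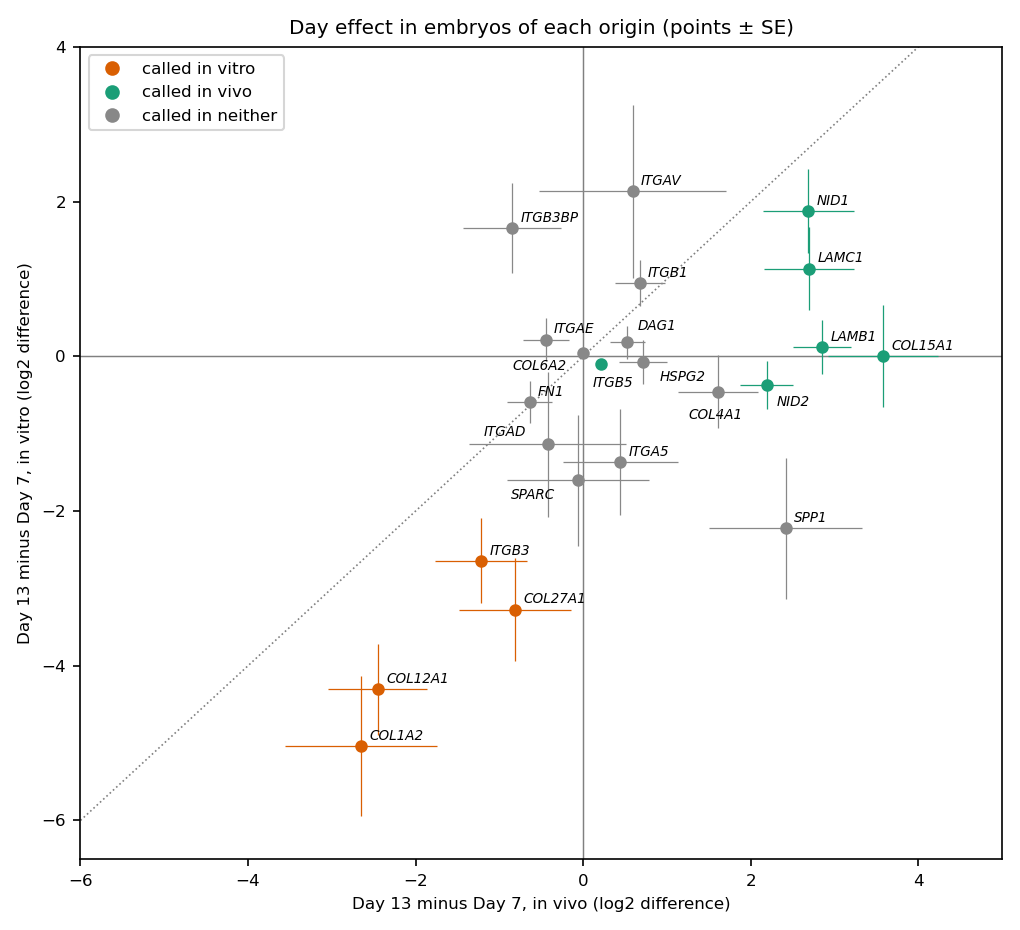
Log2 difference of Day 13 minus Day 7 in embryos of in vitro origin (vertical axis) against that in embryos of in vivo origin (horizontal axis) for the 23 genes above background on at least 3 arrays, with SE bars. The dotted line marks equal day effects. The laminin and nidogen genes and COL15A1 lie to the right near or above 0 on the vertical axis, and COL1A2, COL12A1, COL27A1 and ITGB3 lie below the line.

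Given as in vitro minus in vivo, the difference of the day effects was largest in size for SPP1 (-4.65 ± 1.29, adjusted p = 0.232) and COL15A1 (-3.58 ± 0.93, adjusted p = 0.204), of which the second is fitted to values at background in 3 groups. The lowest adjusted p among the 56 were those of NID2 (-2.56 ± 0.44, adjusted p = 0.0638) and LAMB1 (-2.73 ± 0.49, adjusted p = 0.0719), with 95% intervals of -3.58 to -1.55 and -3.86 to -1.60. LAMB1 and NID2 did pass under some alternatives, which are given with the other settings in the closing paragraphs.

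**Figure D5:**
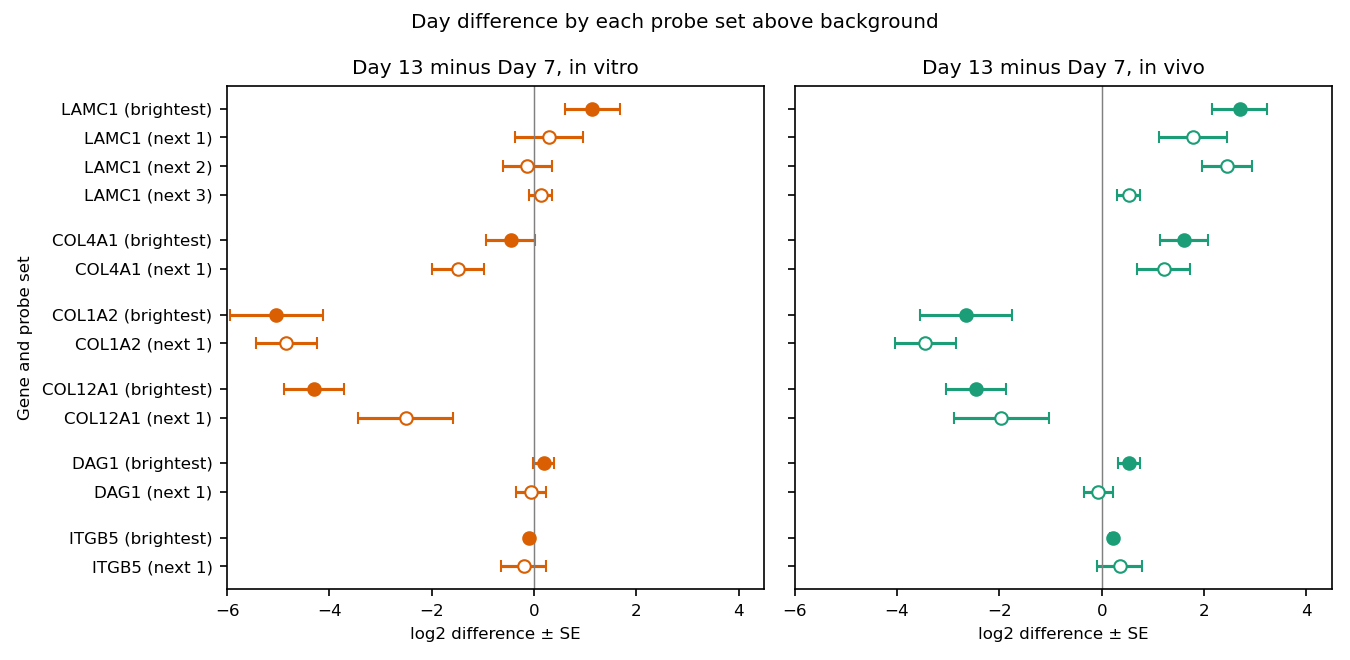
Log2 difference of Day 13 minus Day 7 in vitro (left) and in vivo (right) by every probe set above background on at least 3 arrays, for the 6 genes with more than 1 (bars, SE). Filled points are the probe set with the highest mean. The probe sets of LAMC1, COL4A1, COL1A2, COL12A1 and ITGB5 each lie on 1 side of 0 in vivo, and those of DAG1 lie on both.

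Enzymes and partners of these proteins were examined from 4 lists. Of 19 measured genes of collagen and matrix processing, 2 rose and 2 fell by day in vitro, 2 rose in vivo, 0 passed between the origins at Day 13 and 1 was higher in Day 7 in vitro pools. PLOD2, which hydroxylates collagen lysines, was at 9.99, 10.26 and 10.99 in Day 13 in vitro pools, 10.78, 9.73 and 10.81 in Day 13 in vivo pools, 7.57, 8.10 and 7.05 in Day 7 in vitro pools and 4.53, 4.53 and 4.20 in Day 7 in vivo pools. The Day 13 groups overlapped, the Day 7 in vitro arrays lay below them and the Day 7 in vivo arrays lowest. PLOD2 rose by 2.84 ± 0.39 in vitro (adjusted p = 0.00401) and by 6.02 ± 0.39 in vivo (adjusted p = 0.000112) and was higher in Day 7 in vitro than in Day 7 in vivo by 3.15 ± 0.39 (adjusted p = 0.0259). A second probe set of PLOD2 was at least 6.61-fold higher by day in vitro (adjusted p = 0.0117) and gave 0.84 ± 0.68 in vivo (adjusted p = 0.618), so the probe sets disagree in vivo.

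By day in vitro PCOLCE, an enhancer of procollagen cleavage, fell by 5.31 ± 0.81 (adjusted p = 0.00665), LOXL4, an enzyme that crosslinks collagen, was at least 3.6-fold lower (adjusted p = 0.00469), and P4HB, a subunit of collagen prolyl hydroxylase, rose by 1.60 ± 0.26 (adjusted p = 0.00868). The levels of PCOLCE were 2.59, 2.68 and 5.26 in Day 13 in vitro pools, 7.70, 5.32 and 7.27 in Day 13 in vivo pools, 8.93, 9.01 and 8.52 in Day 7 in vitro pools and 8.81, 9.34 and 8.50 in Day 7 in vivo pools. Its difference by day in vivo was -2.12 ± 0.81 (adjusted p = 0.27). The second PCOLCE probe set gave -1.55 ± 0.47 in vitro (adjusted p = 0.0989).

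Of 19 matrix proteases and their inhibitors, 2 rose and 2 fell by day in vitro, 2 rose in vivo, 1 was lower in Day 13 in vitro pools and 1 passed for the difference of the day effect. That last was TIMP2, an inhibitor of matrix metalloproteases, at 5.36, 5.25 and 6.01 in Day 13 in vitro pools, 8.95, 10.37 and 8.77 in Day 13 in vivo pools, 10.82, 10.35 and 11.18 in Day 7 in vitro pools and 9.45, 8.96 and 10.35 in Day 7 in vivo pools. All Day 13 in vitro arrays lay below every other array. TIMP2 fell by 5.24 ± 0.51 in vitro (adjusted p = 7e-04), with -0.23 ± 0.51 in vivo (adjusted p = 1), and the day effects differed by -5.02 ± 0.72 (adjusted p = 0.0324). At Day 13 it was lower in vitro by a log2 difference of -3.82 ± 0.51 (adjusted p = 0.0128). The other TIMP2 probe set was at background in both in vitro groups, and at Day 13 it gave -1.01 ± 0.24 (adjusted p = 0.0899).

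TIMP1, a related inhibitor, fell by 4.79 ± 0.90 in vitro (adjusted p = 0.0157), and its second probe set by 3.87 ± 0.76 (adjusted p = 0.0191), with 0.07 ± 0.90 and 0.43 ± 0.76 in vivo. The protease gene ADAMTS1 rose by 5.41 ± 0.94 in vitro (adjusted p = 0.0114), with 3.10 ± 0.94 in vivo (adjusted p = 0.15). The membrane protease gene ADAM9 rose by 2.32 ± 0.45 in vitro (adjusted p = 0.0183) and by 2.61 ± 0.45 in vivo (adjusted p = 0.0169), and of its 2 other probe sets 1 passed in vitro and 0 in vivo.

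Of 22 measured integrin adaptors and focal adhesion genes, 2 fell by day in vitro and 0 passed in any other contrast. ACTN1, alpha-actinin, fell by 3.22 ± 0.33 in vitro (adjusted p = 0.00101) and differed by -1.38 ± 0.33 in vivo (adjusted p = 0.0671), while its other probe set was at background in both in vitro groups. CD81, a tetraspanin that associates with integrins, fell by 4.38 ± 0.97 in vitro (adjusted p = 0.0306), where the Day 7 in vitro arrays were at 9.27, 8.98 and 8.27, and differed by 0.04 ± 0.97 in vivo.

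Of 26 other matrix glycoproteins and proteoglycans, 3 rose and 2 fell by day in vitro, 2 rose and 1 fell in vivo, 2 were lower in Day 13 in vitro pools and 2 passed for the difference of the day effect. EGFLAM (pikachurin), a ligand of dystroglycan, was above background only in Day 13 in vivo pools, at 5.79, 5.28 and 5.35, and stood at 2.23 on all other arrays, as COL15A1 did. It was at least 4.24-fold higher in Day 13 in vivo than in Day 7 in vivo (adjusted p = 2.65e-06) and at least 4.24-fold lower in Day 13 in vitro than in Day 13 in vivo (adjusted p = 1.06e-05). The p-values of EGFLAM rest on the spread among the Day 13 in vivo arrays (SD 0.27), since the other groups had none. They were fitted to the deposited values below background, so they are smaller than the evidence warrants. FBLN1, fibulin, found in basement membranes and elastic fibres, was at 2.95, 3.01 and 4.32 in Day 13 in vitro pools and 6.74, 7.47 and 6.08 in Day 13 in vivo pools, with all Day 7 arrays at background. It was at least 10.4-fold higher by day in vivo (adjusted p = 0.0014) and differed by -3.33 ± 0.43 between the origins at Day 13 (adjusted p = 0.0115).

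TGFBI, an adhesive matrix protein, fell by 5.24 ± 0.33 in vitro (adjusted p = 7.17e-05) and by 4.05 ± 0.33 in vivo (adjusted p = 0.000392). GPC1, a glypican, fell by 1.73 ± 0.20 in vitro (adjusted p = 0.00178), with 0.18 ± 0.20 in vivo, and its day effects differed by -1.92 ± 0.29 (adjusted p = 0.0413). Over each of the 4 lists the median difference lay between -0.23 and 0.15 in all 5 contrasts, beside 0.00 for all genes, and many genes of each list were at background, which holds a median near 0. The shares of all genes that passed are those given for the 56 above.

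The calls of the named partner genes were recomputed without the low spike-in pair and with the spike-in level as a covariate. By day in vitro, 6 of 12 such genes passed without the pair (ACTN1, GPC1, LOXL4, PLOD2, TGFBI and TIMP2) and 1 with the covariate (TGFBI). By day in vivo, 4 of 5 passed without the pair, ADAM9 being lost (adjusted p = 0.0514), and 5 with the covariate. Between the origins at Day 13, EGFLAM passed both ways, while FBLN1 (-2.44, adjusted p = 0.083, without the pair and -2.21, 0.524, with the covariate) and TIMP2 (-3.35, 0.16, and -2.86, 0.596) did not. For the difference of the day effect EGFLAM passed both ways, and TIMP2 (adjusted p = 0.119 and 0.223) and GPC1 (0.109 and 0.228) did not. The call of PLOD2 at Day 7 was lost both ways. In vivo ACTN1 passed as lower without the pair (-1.38, adjusted p = 0.018) and with the covariate (-1.33, 0.0322). No value of these calls reversed. Over all genes the same settings left 203 higher and 153 lower by day in vitro without the pair and 47 higher and 56 lower with the covariate.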

How the data were processed

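Each deposited value is the log2 intensity of 1 probe set after normalization by the authors. RMA, GCRMA and limma are named per the submitters' processing notes, without versions, and which of RMA and GCRMA made the values is not given in the sources used here. Of 24128 probe sets, 112 controls were left out of the tests and 24016 were tested. Probe sets with 1 symbol numbered 13292, with several symbols 86 and with none 10638, by GEO's platform annotation, and all 56 gene symbols matched the current RefSeq symbol through the gene ID.

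Group means were fitted with limma 3.58.1 (lmFit, eBayes without trend) in R 4.3.3 to all 12 arrays, with 8 residual and 0.379 prior degrees of freedom, and p-values were two-sided and Benjamini-Hochberg adjusted over all tested probe sets. The script was tested on simulated data. Where a whole group was at background, the brighter group's mean over the background is given as "at least" that fold, with the adjusted p of the fit. The number of arrays, 3 per group, limits the precision.

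The genes, the lists of markers and partners and the tests were chosen with earlier results of these data known. Genes were named if called, if among the 10 with the highest mean, if on a short list of core genes, or as up to 4 called genes of each partner list. Equal replicate numbers do not pair the pools: after removal of group means, 3 of 18 pairs with one number had a correlation over 0.1 (median r -0.06, range -0.60 to 0.39). The alternatives covered scaling, arrays in the fit, moderation, filters, floor, probe set choice, a replicate block, the spike-in level and each array left out. P-values measure the spread between pools.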

Additional observations from a re-analysis of the deposited data

Results flagged for a closer look

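NID2 stood out because the signs of its day effects were opposite in the embryos of each origin, with no overlap between the Day 13 and Day 7 arrays of either. How many of all genes have this pattern was not counted. All 3 Day 13 in vitro arrays lay just below all 3 Day 7 in vitro arrays, and all 3 Day 13 in vivo arrays lay above all 3 Day 7 in vivo arrays. In vitro the nearest arrays were at 10.4956 (Day 13) and 10.5287 (Day 7), and that day difference did not pass. A fall in vitro is thus not established. The difference of the day effects, in vitro minus in vivo, was tested: it was -2.56 ± 0.44 (log2, SE) with a limma adjusted p of 0.0638, which misses the threshold. No cause was tested.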

How the results depend on the processing

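Counts of the 56 genes called were recomputed under 11 alternative settings and with each of the 12 arrays left out, and 61 of 114 counts were within 1.5 times the reported one. The counts for Day 13 against Day 7 in vitro (4), Day 13 against Day 7 in vivo (6), Day 13 in vitro against in vivo (1), Day 7 in vitro against in vivo (1) and the difference of the day effect (0) are taken in this order below. With only the arrays compared they were 1, 0, 0 and 0, while the last has no other fit. Median centring gave 38 at Day 13, of which 21 were at background on all arrays compared beside a shift of -0.31 in the median of all genes, and 2 for the difference of the day effect. Ribosomal centring, which shifted the median of all genes by -0.41 by day in vivo, -0.37 at Day 7 and 0.48 for the difference of the day effect, gave 3 at Day 13, 0 at Day 7 and 1 for the difference, and turned ITGB5 by day in vivo to -0.20. Trend and robust moderation gave 0 at Day 13 and 0 at Day 7. Testing only probe sets above background on 3 arrays gave 7 in vitro (3 higher), 6 at Day 13 and 2 for the difference. A floor at background gave 0 at Day 13, and the mean of all probe sets of a gene gave 3 at Day 13 and 2 for the difference. With the replicate block the counts were 3 in vivo, 0 at Day 13, 0 at Day 7 and 1 for the difference. The labels give the numbers no shared source and same-numbered arrays did not deviate together, so the block was not taken as a pairing. With the poly-A covariate they were 0 in vitro, 0 at Day 13 and 0 at Day 7. Without the low poly-A pair they were 1, 0 and 0 for the same contrasts. Leaving out 1 array gave 1 to 4 in vitro, 2 to 7 in vivo, 0 to 8 at Day 13, 0 to 2 at Day 7 and 0 to 5 for the difference.

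Counts over all probe sets moved too. By day in vitro they were 1804 as reported, 2886 with the filter, 787 with only the arrays compared, 902 without the low pair and 197 with the poly-A covariate. At Day 13 they were 288 as reported, 13669 with median centring, 1215 with the filter, 0 with only the arrays compared and 9 with the covariate. Without Day 13 in vitro replicate 3 the Day 13 count over all probe sets was 2058. For the difference of the day effect they were 96 as reported, 169 with median centring, 278 with the filter and 1083 without that array.

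The low counts in vitro came without Day 13 in vitro replicate 1 (count 1), Day 13 in vitro replicate 2 (count 2) and Day 7 in vitro replicate 1 (count 2). Those in vivo came without Day 13 in vivo replicate 3 (count 2), Day 7 in vivo replicate 1 (count 2), Day 7 in vivo replicate 3 (count 2), Day 13 in vivo replicate 1 (count 3) and Day 13 in vitro replicate 2 (count 3). Without Day 13 in vitro replicate 3 there were 8 at Day 13 and 5 for the difference, where LAMB1 (adjusted p = 0.018) and NID2 (0.033) passed. Without Day 13 in vivo replicate 2 there were 2 at each, and without Day 7 in vivo replicate 2, 2 at Day 7 and 1 for the difference. At Day 13 the count was 0 without each of the other 10 arrays, and at Day 7 it was 0 without replicate 1 or replicate 2 of Day 13 in vitro. The difference for LAMB1 also passed with median centring (0.0359), ribosomal centring (0.0396), the filter (0.0234), the mean of probe sets (0.0462) and the replicate block (0.0369). That for NID2 passed with median centring (0.0286), the filter (0.0213) and the mean of probe sets (0.0432), and without Day 13 in vivo replicate 2 (0.0246). Of 276 values for the 12 calls, 182 kept their call, 93 kept the direction and lost it, and 1 reversed. The causes were not tested. In limits, 26 of the 56 genes were at background on all arrays, so differences among them were not measurable, and 3 pools a group resolve only large differences.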

Other observations

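A few collagen and receptor genes that were at background elsewhere appeared on a single array. ITGB2, the beta chain of leukocyte integrins, was at 4.77 on Day 13 in vivo replicate 2, which also held the high COL18A1 value of 9.14. On the same array PTPRC and CD14, markers of leukocytes, were at background. COL5A2 was at 3.77 on Day 13 in vivo replicate 1, which had the highest ITGAD value, 5.76. COL17A1, an epithelial anchoring collagen, was at 3.89 on Day 7 in vitro replicate 1. These values are from 1 array each and have no replicate.

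ITGB3BP, the nuclear protein that is no integrin subunit, averaged 8.37 ± 0.05 in Day 13 in vitro pools, 6.77 ± 0.65 in Day 13 in vivo pools, 6.72 ± 1.11 in Day 7 in vitro pools and 7.62 ± 0.69 in Day 7 in vivo pools (SD, n = 3 each). The difference of its day effects was 2.51 ± 0.82 (adjusted p = 0.32).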
